A study of Rattus norvegicus with 9 samples.

Results

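A set of 10 genes of the fat cell were followed in rat bone after ovariectomy and after treatment with astragaloside IV (AS-IV), a saponin of Astragalus root. They are the transcription factors Pparg and Cebpa, the lipid droplet proteins Plin1, Plin4, Cidec and Cidea, the fatty acid handling genes Fabp4 and Lpl, and the lipases Lipe and Pnpla2. All 10 members were found among the 23026 genes of the tables, and all 10 passed the filter on low counts that left 16874 genes for testing. Their counts ran from 128 for Cidea to 13111 for Fabp4 in a single library, so none of them lay near the detection limit.

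Poly(A) RNA of frozen femur was sequenced from female Sprague-Dawley rats that were 8 weeks old at purchase, with 3 libraries from separate animals in each of 3 groups. Sham rats had their ovaries exposed and kept, and a matching amount of fat beside the ovary was taken out. OVX rats had both ovaries removed, and OVX-AS-IV-High rats had the same operation followed by AS-IV at 80 mg/kg. Dosing by gavage started 6 weeks after surgery and went on daily for 8 weeks. Sham and OVX rats received the vehicle sodium carboxymethyl cellulose, in which AS-IV was also prepared according to the study's methods. The sample labels give it as 1%, 2% and 3% for Sham 1, 2 and 3 and as 1% for OVX, whereas the study's methods give 1%. Each library held between 34874880 and 37298250 counts.

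The femur holds marrow, in which adipocytes lie between the blood-forming cells and arise from the same stromal progenitors as osteoblasts. Pparg and Cebpa drive the adipocyte programme and sustain each other. Triglyceride is then stored in droplets coated by perilipins and enlarged by CIDE proteins, supplied with fatty acids that lipoprotein lipase frees from circulating lipoproteins, and broken down in turn by adipose triglyceride lipase (Pnpla2) and hormone-sensitive lipase (Lipe). RNA was measured in bulk, so fewer cells of a type and less RNA per cell cannot be told apart.

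The adipocyte markers Adipoq and Lep were detected in all 9 libraries, whereas Ucp1, the defining gene of brown fat, had 0 counts in 8 libraries and 1 count in Sham 2. Skeletal muscle RNA was also present and uneven. The summed FPKM of 14 skeletal muscle markers was 7151, 4990 and 1246 in Sham 1, 2 and 3, against 2732, 1503 and 1302 in OVX. It was 3803, 1685 and 454 in treated rats (OVX-AS-IV-High), where FPKM is the count scaled by gene length and library size. Sham 1, Sham 2 and OVX-AS-IV-High 1 held the most. None of the 14 markers passed the thresholds below, although their median log2 fold change (log2FC) in OVX vs. Sham was -1.11. Acta1, the actin of skeletal muscle, ranged from 252 to 1825 FPKM in Sham, from 238 to 551 in OVX and from 94.5 to 957 in treated rats. Ckm, the creatine kinase of muscle, ranged from 169.7 to 891 FPKM in Sham, from 143 to 296 in OVX and from 46.5 to 442 in treated rats. Lpl, Lipe, Pnpla2 and Plin4 are also used by muscle fibres, and the part of muscle RNA in their values was not tested.

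RefSeq promoters of assembly GRCr8 were matched to 7 of the 10 members, all but Fabp4, Lpl and Lipe. The genome build named in the submitters' processing notes is mRatBN7.2, so the positions of these windows are those of GRCr8 and were used for sequence only. They are shown because the product of Cebpa binds letters of the form TTGCNNAA, and 3 of the 7 genes hold such letters in the 250 bases before a listed start. The windows of Plin1 (chr1:143086149-143086398, minus strand), Cidec (chr4:148137116-148137365, minus strand) and the downstream start of Pparg (chr4:150154522-150154771, plus strand) read as follows from 5′ to 3′, with matches to TTGCNNAA and CCAAT on either strand in capitals.
Plin1: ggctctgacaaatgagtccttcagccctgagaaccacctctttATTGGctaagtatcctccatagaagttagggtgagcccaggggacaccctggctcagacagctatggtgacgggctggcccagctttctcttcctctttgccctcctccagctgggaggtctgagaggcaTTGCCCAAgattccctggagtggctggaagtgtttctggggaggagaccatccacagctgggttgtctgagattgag
Cidec: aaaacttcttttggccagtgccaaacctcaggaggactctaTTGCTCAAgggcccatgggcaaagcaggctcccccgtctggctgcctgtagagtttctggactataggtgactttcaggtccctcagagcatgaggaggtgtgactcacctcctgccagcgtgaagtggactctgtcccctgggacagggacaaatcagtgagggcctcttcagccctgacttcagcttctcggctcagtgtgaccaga
Pparg: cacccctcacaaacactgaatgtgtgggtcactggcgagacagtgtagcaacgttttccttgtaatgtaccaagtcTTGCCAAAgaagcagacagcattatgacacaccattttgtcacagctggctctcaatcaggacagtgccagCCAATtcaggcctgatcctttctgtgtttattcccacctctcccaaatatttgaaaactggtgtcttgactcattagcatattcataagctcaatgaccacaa
The TTGCNNAA match began 77 bases before the start in Plin1, 209 in Cidec and 174 in Pparg. The 7 genes have 12 windows, of which 3 held these letters. Counted alike, a match in any window was found in 9.99% of all 27457 genes, and 9.22% of the 33465 single windows held one. Cidea, Cebpa, Plin4 and Pnpla2 held no match, but each held the GC box GGGCGG, which was found in 5 of the 7 genes and in 33.5% of all genes. The PPAR half-site AGGTCA was found in 0 of the 7 genes and in 14.8% of all genes. CCAAT was present in 2 of the 7 genes (36.1% of all genes), and TATAAA in Cebpa alone among them (14.1% of all genes). Both strands were searched, the matches in the printed windows did not overlap one another, and a match is a description of letters only.

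After ovariectomy, 3 of the 4 droplet coat and fusion genes stood at higher levels in bone, and neither lipase did. A gene was called past the thresholds when its unadjusted p was under 0.05 and its absolute log2FC was over 1. In OVX vs. Sham, 3 of the 10 members were past them, all higher in OVX: Plin1, Cidec and Cidea. Among all genes tested, 1.08% were past the thresholds in that direction. With a lower fold threshold, a log2FC over 0.58, Lpl was also past them, making 4 members, against 2.86% of all genes higher. On p alone 6 of the 10 members had an unadjusted p under 0.05, against 16.4% of all genes. In 7 members every OVX library lay above every Sham library, against 12.7% of all genes. The members' median log2FC was 0.46, and that of all genes was -0.0062. With Benjamini-Hochberg adjustment over all genes, the quasi-likelihood test of edgeR put 0 members and 0 genes below an adjusted p of 0.05. With DESeq2, 3 members had an adjusted p under 0.05, among 834 of the 16874 genes. The exact permutation test of a single gene cannot go below a p of 0.1 with groups of this size.

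**Figure D1:**
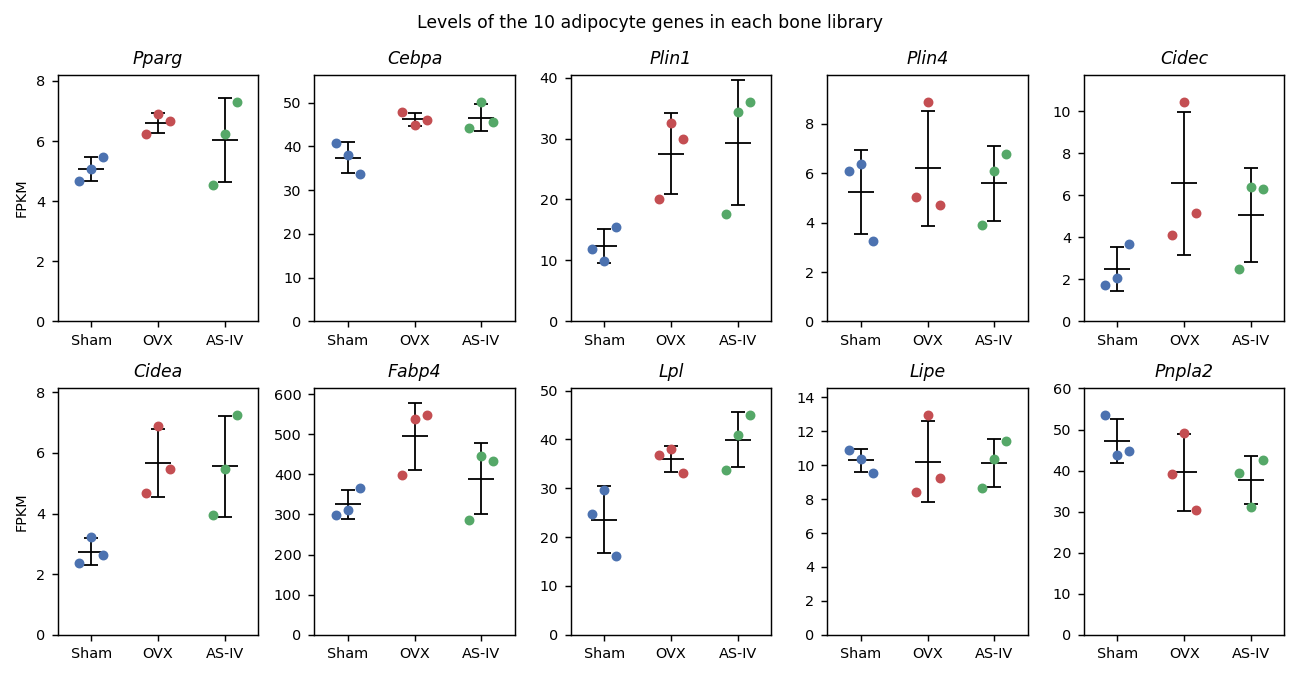
Level of each of the 10 genes in FPKM (y axis, from 0, a scale of its own in each panel) by group, where AS-IV stands for OVX-AS-IV-High. Points are libraries 1, 2 and 3 from left to right, and black bars are the mean ± SD (n = 3). OVX points lie above all Sham points for 7 genes, but not for Plin4, Lipe and Pnpla2.

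Pparg encodes the nuclear receptor that commands fat cell differentiation. Its level was 4.67, 5.08 and 5.48 FPKM in Sham 1, 2 and 3, 6.24, 6.90 and 6.67 in OVX, with 4.54, 6.25 and 7.30 in treated rats. The OVX libraries lay above all Sham libraries, and the treated libraries spanned both groups. The log2FC in OVX vs. Sham was 0.35 (SE 0.169, adjusted p = 0.334). Cebpa, which keeps the differentiated state together with Pparg, is also used by the granulocyte precursors of marrow. It was measured at 40.7, 38.0 and 33.6 FPKM in Sham, 47.8, 44.9 and 46.0 in OVX, with 44.2, 50.2 and 45.5 in treated rats. All 6 libraries from ovariectomized rats lay above the 3 Sham libraries, by a small margin: the log2FC was 0.28 (SE 0.0940, adjusted p = 0.208) in OVX vs. Sham and, for treated rats against Sham, 0.33 (SE 0.0940, adjusted p = 0.145). Neither transcription factor passed the thresholds. Mpo and Elane, enzymes of granulocyte precursor granules, stood higher with it: their log2FC in OVX vs. Sham was 0.46 (SE 0.125, adjusted p = 0.160) and 0.59 (SE 0.144, adjusted p = 0.149), and the groups lay apart for both, in treated rats against Sham as well. Mpo and Elane were named after their values were seen. Of the 9 neutrophil markers tested, 8 had a positive log2FC in OVX vs. Sham, with a median of 0.17. Prtn3, a protease of the same granules, had 0.36 (SE 0.246, adjusted p = 0.473) with overlapping groups, and Mmp8 had -0.17 (SE 0.292, adjusted p = 0.569). The part of granulocyte precursors in the values of Cebpa was not tested.

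Plin1, the perilipin that coats droplets of mature adipocytes and holds lipases off at rest, was higher in every library of ovariectomized rats. It was measured at 11.9, 9.93 and 15.4 FPKM in Sham, 20.1, 32.6 and 29.9 in OVX, with 17.5, 34.4 and 36.0 in treated rats. The lowest of them, OVX-AS-IV-High 1, still exceeded the highest Sham library. The level rose 2.17-fold in OVX vs. Sham (log2FC 1.12, SE 0.284, adjusted p = 0.152). With treatment it stood 2.36-fold above Sham (log2FC 1.24, SE 0.285, adjusted p = 0.107).

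Cidec promotes the fusion of small droplets into a large one. It was measured at 1.72, 2.06 and 3.71 FPKM in Sham, 4.13, 10.5 and 5.14 in OVX, with 2.51, 6.41 and 6.31 in treated rats. OVX 2 stood well above every other library, and OVX-AS-IV-High 1 lay inside the Sham range. Cidec rose 2.57-fold in OVX vs. Sham (log2FC 1.36, SE 0.457, adjusted p = 0.206), and without OVX 2 the log2FC was 0.88 and no longer past the thresholds. In OVX-AS-IV-High vs. Sham the log2FC was 1.03 (SE 0.455, adjusted p = 0.283), with overlapping groups.

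Cidea, a relative of Cidec that is known from brown fat and also found in rodent white fat, was at 2.36, 3.22 and 2.65 FPKM in Sham, 4.69, 6.89 and 5.46 in OVX, with 3.94, 5.48 and 7.24 in treated rats. Both ovariectomized groups lay wholly above Sham. It rose 2.02-fold in OVX vs. Sham (log2FC 1.02, SE 0.255, adjusted p = 0.151), and treated rats were 2.03-fold above Sham (log2FC 1.02, SE 0.255, adjusted p = 0.120). Plin4, a perilipin of nascent droplets, was not past the thresholds, unlike Plin1, Cidec and Cidea, but a difference between these genes was not tested. Its level was 6.07, 6.37 and 3.27 FPKM in Sham, 5.02, 8.89 and 4.71 in OVX, with 3.90, 6.08 and 6.80 in treated rats. The 3 groups overlapped, and the log2FC in OVX vs. Sham was 0.21 (SE 0.318, adjusted p = 0.748). Without the 3 libraries richest in muscle markers, which leaves Sham 3 alone in its group, the log2FC of Plin4 was 0.90. In that fit it was 0.81 for Plin1, 0.80 for Cidec and 1.08 for Cidea.

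Fabp4, the fatty acid carrier of the adipocyte cytoplasm that endothelial cells and macrophages also make, was the most abundant of the 10 per length, with a mean of 403 FPKM. It was measured at 299, 310.4 and 366 FPKM in Sham, 398, 539 and 547 in OVX, with 287, 447 and 433 in treated rats. The OVX libraries lay above Sham, whereas OVX-AS-IV-High 1 was the lowest of all 9. The log2FC was 0.58 (SE 0.185, adjusted p = 0.199) in OVX vs. Sham and, in treated rats against Sham, 0.26 (SE 0.185, adjusted p = 0.486).

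Lpl encodes lipoprotein lipase. Its level was 24.8, 29.7 and 16.2 FPKM in Sham, 36.8, 38.0 and 33.0 in OVX, with 33.8, 41.0 and 44.9 in treated rats, with all 6 libraries of ovariectomized rats above Sham. The log2FC was 0.58 (SE 0.200, adjusted p = 0.214) in OVX vs. Sham and, in treated rats against Sham, 0.77 (SE 0.200, adjusted p = 0.125), short of the threshold of 1 in both. When the 3 libraries with the most muscle RNA were left out, the values were 1.13 and 1.42, past the thresholds. That leaves 1 Sham library, Sham 3, which had the lowest Lpl level of all and is assumed to vary like the other groups.

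Lipe was nearly level across the study. It was at 10.9, 10.4 and 9.56 FPKM in Sham, 8.45, 12.9 and 9.24 in OVX, with 8.63, 10.3 and 11.4 in treated rats, and the groups overlapped. The log2FC was -0.04 (SE 0.157, adjusted p = 0.919) in OVX vs. Sham. Pnpla2 was at 53.5, 43.7 and 44.7 FPKM in Sham, 39.1, 49.3 and 30.5 in OVX, with 39.5, 31.1 and 42.6 in treated rats. Its log2FC was -0.28 (SE 0.174, adjusted p = 0.421) in OVX vs. Sham and, in treated rats against Sham, -0.32 (SE 0.174, adjusted p = 0.381). Each treated library lay below each Sham library, and neither lipase passed the thresholds.

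Per length, the order of the mean levels over the 9 libraries was Fabp4 (403 FPKM), Cebpa (43.4), Pnpla2 (41.5), Lpl (33.1), Plin1 (23.1), Lipe (10.2), Pparg (5.90), Plin4 (5.68), Cidec (4.72) and Cidea (4.66). Neighbours such as Cebpa and Pnpla2, or Plin4, Cidec and Cidea, were closer in mean than the spread of their libraries. The spread between the highest and lowest library was widest for Cidec at 5.99-fold and Plin1 at 3.54-fold. It was narrowest for Cebpa at 1.49-fold and Lipe at 1.51-fold.

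**Figure D2:**
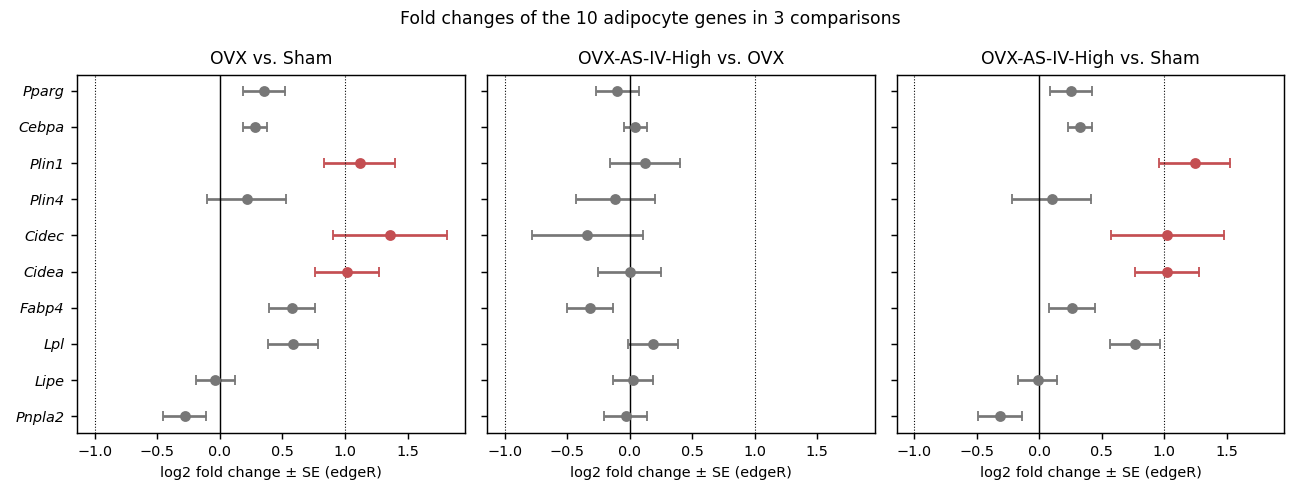
log2FC ± SE (x axis, edgeR) of the 10 genes in the 3 comparisons. Red marks genes past the thresholds, grey the others, and dotted lines mark a log2FC of 1 and -1. Plin1, Cidec and Cidea are red in both comparisons with Sham, and the middle panel, OVX-AS-IV-High vs. OVX, holds no red point.

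The comparison of OVX-AS-IV-High with OVX asks whether AS-IV altered these genes in ovariectomized rats. Of the 10 members, 0 were past the thresholds in either direction in edgeR's quasi-likelihood test. Among the 16874 genes, 140 were past them, 77 higher (0.456%) and 63 lower. An unadjusted p under 0.05 was found in 0 members, against 6.45% of all genes. DESeq2 also put 0 members past them, and with a log2FC over 0.58 the count was still 0 (1.51% of all genes higher). The study describes no pairing of animals. With the replicate number as a block, 1 member, Fabp4, had an unadjusted p under 0.05, against 7.76% of all genes. In that blocked fit the log2FC of Fabp4 was -0.32 (SE 0.108, adjusted p = 0.548). Its level was lower with treatment in 3 of 3 matches by replicate number. In 0 members did the groups lie apart in either direction. Among the 16874 genes, 1076 (6.38%) had every treated library above every OVX library and 1074 had every one below. The log2FC values ran from -0.34 for Cidec (SE 0.447) and -0.32 for Fabp4 (SE 0.185) to 0.18 for Lpl (SE 0.199), with a median of -0.016 over the members. Cidea had a log2FC of 0.00053 (SE 0.250), the smallest of the 10. Its sign turned under 9 of 20 alternative settings. The SE of the droplet genes ran from 0.250 to 0.447, and a treatment difference well beyond the SE could still be missed here. In OVX vs. Sham, for example, Pparg had a log2FC of 0.35, an SE of 0.169 and an unadjusted p of 0.067 by edgeR.

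In OVX-AS-IV-High vs. Sham, 3 of the 10 members were past the thresholds, again Plin1, Cidec and Cidea, against 1.11% of all genes higher. With a log2FC over 0.58 Lpl joined them, against 3.07% of all genes higher. The comparison uses the same Sham libraries as OVX vs. Sham. Cebpa, Plin1, Cidec, Cidea and Lpl, 5 of the 10, had an unadjusted p under 0.05, against 17.6% of all genes. The groups lay apart upward in 4 members (9.61% of all genes) and downward in Pnpla2 alone (10.3% of all genes). The median log2FC was 0.29 over the members and -0.013 over all genes. By edgeR, 0 members reached an adjusted p below 0.05, and by DESeq2 4 did, among 1009 of the 16874 genes.

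Whether the 3 members were past the thresholds depended on single libraries. In OVX vs. Sham, 1 member was past them without Sham 1, 1 without Sham 2 and 0 without OVX 2. In OVX-AS-IV-High vs. Sham, 1 was past them without Sham 1 and 1 without OVX-AS-IV-High 3. The log2FC in OVX vs. Sham stayed positive when single libraries were left out. It ranged from 0.99 to 1.31 for Plin1, 0.88 to 1.77 for Cidec and 0.87 to 1.17 for Cidea. On p alone, 6 members had an unadjusted p under 0.05 without OVX 2 and 6 with the summed muscle level as a covariate. The main fit also had 6 (16.4% of all genes). With that covariate the count past the thresholds was 0 in both comparisons. The log2FC of Plin1, Cidec and Cidea then lay under 1, at 0.83, 0.98 and 0.82 in OVX vs. Sham and at 0.85, 0.48 and 0.74 in OVX-AS-IV-High vs. Sham. Without the 3 libraries richest in muscle markers, 2 members (Cidea and Lpl) were past the thresholds in OVX vs. Sham and 3 (Plin1, Cidea and Lpl) in OVX-AS-IV-High vs. Sham.

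**Figure D3:**
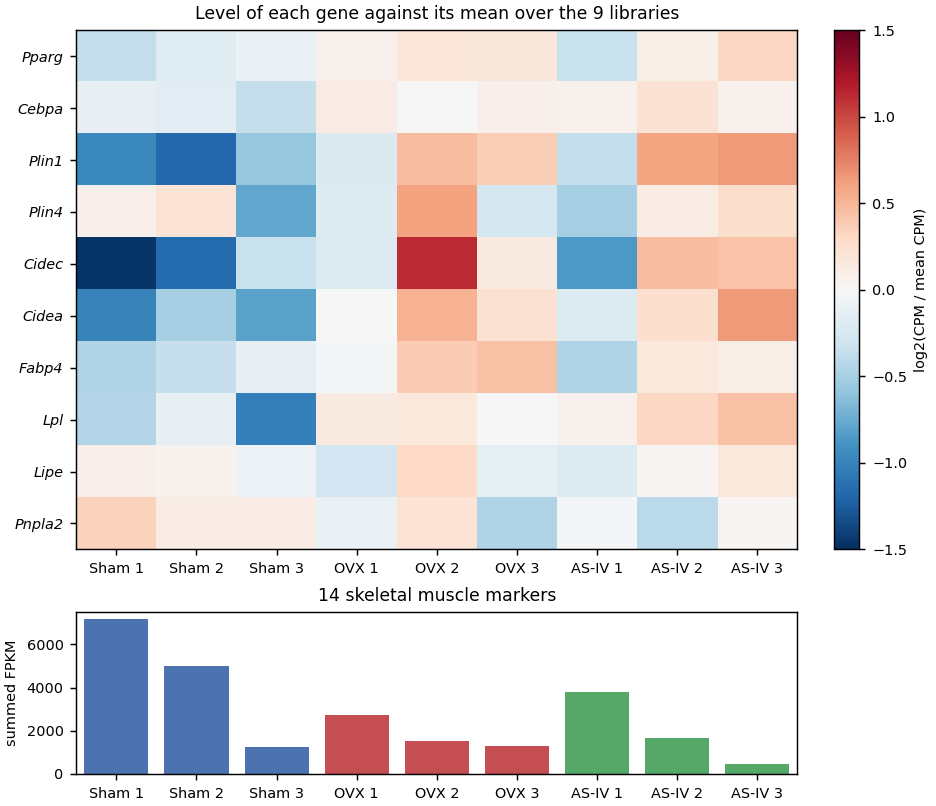
Upper panel, level of each gene (rows) in each library (columns) as log2 of its CPM over its mean CPM in the 9 libraries, red above and blue below the mean. Lower panel, summed FPKM of 14 skeletal muscle markers in the same libraries, from 7151 in Sham 1 to 454 in OVX-AS-IV-High 3.

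Most members ranked the libraries alike, and Pnpla2 did not. OVX 2 was among the 3 highest libraries for 9 members, and OVX-AS-IV-High 3 was the highest for 4. Sham 1 and Sham 2 were each among the 3 lowest for 7 members, and within the treated group OVX-AS-IV-High 1 was among the 3 lowest for 5. Across the 9 libraries, Pearson's r of a member with the mean of the others was 0.90 for Cidea, 0.83 for Cidec and 0.81 for Plin1, then 0.80 for Pparg, 0.71 for Fabp4 and 0.70 for Lpl. It was 0.64 for Plin4, 0.52 for Cebpa, 0.44 for Lipe and -0.39 for Pnpla2. These r values are descriptions over libraries that share group differences and muscle content. The genes outside the list with the pattern most like the members' mean were Specc1l (r = 0.955 over 9 libraries), Ahcyl2 (0.952), Trappc5 (0.943), Rasa2 (0.940), Cyp2d4 (0.938), Map4k4 (0.936), Thra (0.928) and Scaper (0.928).

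The genes around the members in the same pathway showed where else the OVX difference was seen. Of 11 further adipocyte markers tested, 5 were past the thresholds upward in OVX vs. Sham, against 1.08% of all genes, and 0 downward. Of the 11, 9 had a positive log2FC, while Car3 (-0.35) and Slc2a4 (-0.39) were lower, and the abundant Cfd was at 0.15. Lep, the satiety hormone of fat, rose 5.89-fold (log2FC 2.56, SE 0.493, adjusted p = 0.129). It was at 0.381, 0.635 and 0.586 FPKM in Sham, 1.99, 6.05 and 1.67 in OVX, with 1.14, 1.59 and 1.90 in treated rats, so OVX 2 was again the highest. Adipoq, which encodes adiponectin, rose 2.54-fold (log2FC 1.35, SE 0.385, adjusted p = 0.167), from 21.1, 17.8 and 47.8 FPKM in Sham to 67.0, 72.3 and 84.7 in OVX, with 56.7, 119 and 118 in OVX-AS-IV-High. Retn (log2FC 1.42), the lipogenic regulator Thrsp (1.31) and Pnpla3 (1.58) also rose. The list's median log2FC was 0.88, beside -0.0062 for all genes.

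Among 12 partners and regulators of lipolysis, 2 were past the thresholds upward in OVX vs. Sham, against 1.08% of all genes. They were the glycerol channel Aqp7 (log2FC 1.33, adjusted p = 0.149) and Pnpla3, which also stands in the marker list. A further gene, G0s2, the protein inhibitor of adipose triglyceride lipase, had a log2FC of 0.86 (SE 0.155, adjusted p = 0.118) in OVX vs. Sham and rose in OVX-AS-IV-High vs. Sham (log2FC 1.03, SE 0.155, adjusted p = 0.0639). Its adjusted p in the latter equalled the smallest of all genes, a value that Benjamini-Hochberg adjustment gave to other genes as well. Abhd5, the coactivator of the same lipase, had log2FC values of 0.24 and 0.25 in the comparisons with Sham, and Mgll, which frees the last fatty acid, had 0.04 and 0.02. Of 9 partners of Lpl and of fatty acid uptake, 1 was past the thresholds upward in OVX vs. Sham. It was Angptl8, an inhibitor of lipoprotein lipase, with a log2FC of 2.99 (SE 0.725, adjusted p = 0.149) at a mean of 0.955 FPKM.

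Triglyceride synthesis enzymes were mixed: 0 of 12 passed the thresholds in OVX vs. Sham, and the median log2FC was -0.0055. Gpd1, which supplies the glycerol backbone, came closest with a log2FC of 0.98 (SE 0.175, adjusted p = 0.118), from 15.4, 11.6 and 14.5 FPKM in Sham to 25.4, 31.6 and 26.3 in OVX. Gpd1 was singled out after its values were seen. Pck1, an enzyme of glyceroneogenesis, was the only gene of the adipocyte lists to pass when treated rats were set against OVX (log2FC 1.19, SE 0.467, adjusted p = 0.728). Its levels were 3.86, 4.28 and 8.48 FPKM in Sham, 6.81, 12.2 and 5.92 in OVX, with 7.72, 22.0 and 26.1 in treated rats, so the treated group overlapped OVX. Lep came close in the same comparison, with a log2FC of -1.03 (SE 0.464, unadjusted p = 0.053 and adjusted p = 0.779 by edgeR) and overlapping groups. Of the 11 further adipocyte markers, 7 had a positive log2FC there, with a median of 0.21.

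Of 16 other adipogenic transcription factors and coregulators, 0 passed the thresholds in OVX vs. Sham, with a median log2FC of -0.24. Of 11 other droplet proteins tested, 0 passed, and Plin2, the perilipin of most tissues, had a log2FC of -0.06 (SE 0.116, adjusted p = 0.796). Of 8 brown and beige markers tested, 0 passed in OVX vs. Sham. Prdm16, a regulator of brown fat identity, fell by 1.30 on the log2 scale in OVX-AS-IV-High vs. Sham, at a mean of 0.0914 FPKM. Plin5, the perilipin of oxidative muscle, was at 0.739, 0.840 and 0.0397 FPKM in Sham and so was highest in the 2 Sham libraries richest in muscle RNA. Slc2a4, the insulin-responsive glucose transporter of fat and muscle, did likewise at 16.9, 17.3 and 7.13 FPKM in Sham.

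**Figure D4:**
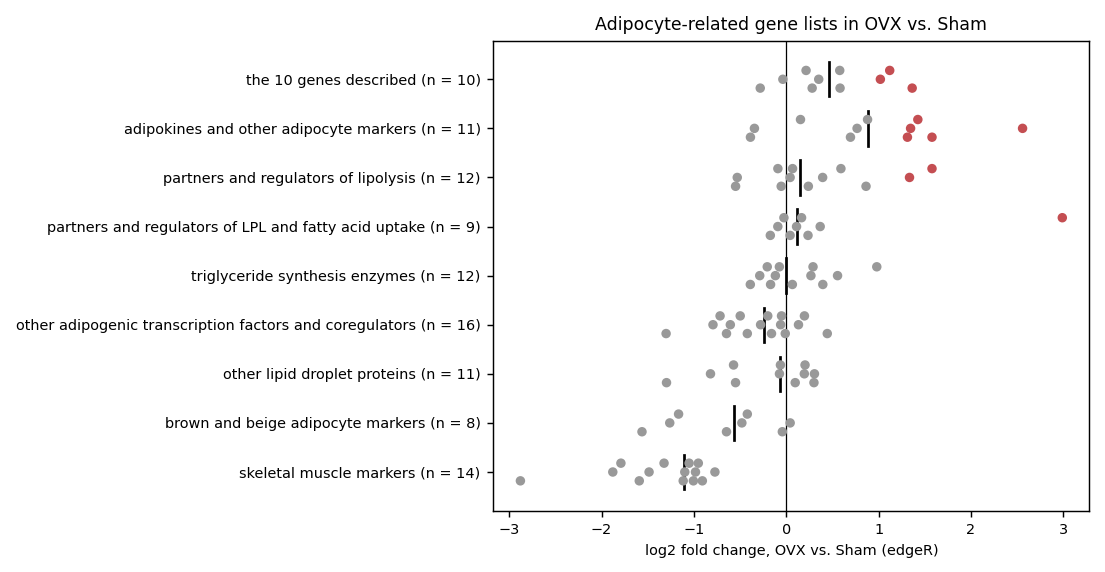
log2FC in OVX vs. Sham (x axis, edgeR) of every gene tested in the 10 members, in 7 related lists and in the skeletal muscle markers. Each point is a gene, red where past the thresholds, and black ticks are list medians, from 0.88 for the further adipocyte markers to -1.11 for muscle.

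Markers of other cells were read beside these results. In OVX vs. Sham, 0 of 10 endothelial, 0 of 9 macrophage, 0 of 10 osteoclast, 0 of 11 erythroid, 0 of 9 neutrophil and 0 of 9 marrow stromal progenitor markers passed the thresholds. Among osteoblast markers Bglap (osteocalcin) rose, with a log2FC of 1.21, and among B lineage markers Igll1 rose, with a log2FC of 1.15. The whole B lineage list stood higher with the members in OVX, with a median log2FC of 0.68. In OVX vs. Sham, 9 of 9 markers had an unadjusted p under 0.05 (16.4% of all genes) and groups apart upward (12.7% of all genes). The list's summed FPKM ranged from 438 to 611 in Sham, from 816 to 873 in OVX and from 519.7 to 812 in treated rats. In treated rats against Sham, 2 of the 9 had an unadjusted p under 0.05, against 17.6% of all genes. Of 9 neutrophil markers, 2 (Mpo and Elane) had one in OVX vs. Sham and 4 in treated rats against Sham, all higher. Of 10 endothelial markers, 2 had one in OVX vs. Sham and 6 in treated rats against Sham, all lower. Among 11 erythroid markers, 3 had one in OVX vs. Sham, all lower, and 1 in treated rats against Sham, higher. The part of these cells in the members' values was not tested.

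Ratios within a library set the droplet coat against the lipase without any scaling between libraries. They were chosen after the values were seen and are given without a test. Plin1 over Lipe was 1.10, 0.958 and 1.62 in Sham, 2.38, 2.52 and 3.24 in OVX, with 2.03, 3.32 and 3.15 in treated rats, with all 6 libraries of ovariectomized rats above Sham. Its geometric mean was 2.25-fold higher in OVX than in Sham. Plin1 over Adipoq was 0.566, 0.560 and 0.323 in Sham, 0.299, 0.451 and 0.353 in OVX, with 0.309, 0.289 and 0.305 in treated rats. This ratio was not higher after ovariectomy: OVX overlapped Sham, and each treated library lay below each Sham library. Lipe over Adipoq was 0.516, 0.584 and 0.200 in Sham, and all other libraries lay between 0.0870 and 0.179. The Sham library with the least muscle RNA, Sham 3, lay closest to the ovariectomized groups in all 3 ratios.

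**Figure D5:**
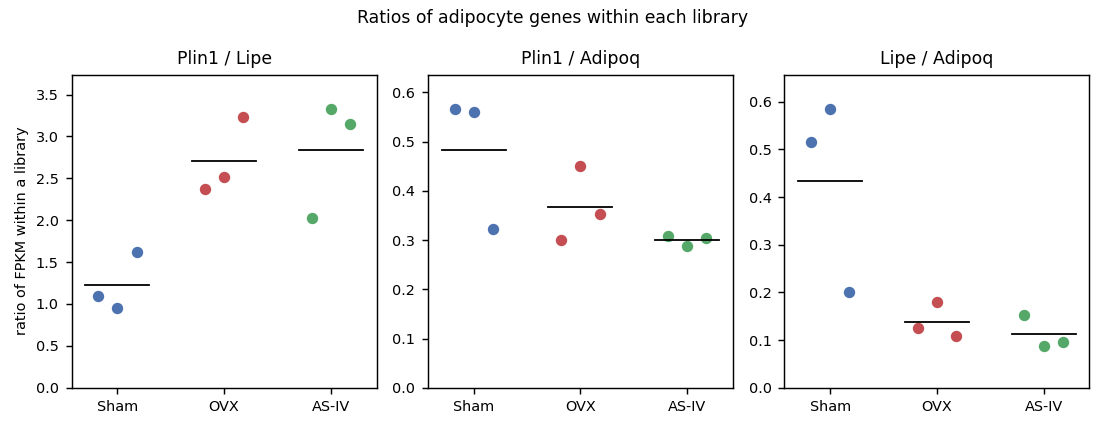
Ratio of FPKM values within each library (y axis, from 0) for Plin1 over Lipe, Plin1 over Adipoq and Lipe over Adipoq. Points are libraries 1, 2 and 3 from left to right in each group, AS-IV stands for OVX-AS-IV-High, and black lines are group means. Plin1 over Lipe is at most 1.62 in Sham and at least 2.03 in the other libraries.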

How the data were processed

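The RNA of 9 bone samples (3 per group) was measured by paired-end mRNA sequencing. The authors aligned reads with Tophat and Bowtie2, quantified genes with eXpress on a build given as mRatBN7.2 in the submitters' processing notes, and deposited counts per gene as whole numbers, not normalized. How the eXpress estimates became whole numbers is not given in the sources used here. The authors also deposited FPKM values, which were the counts rescaled: the gene length they imply agreed within 1% among libraries in 11928 of the 11928 well-covered genes compared. The libraries are stranded per the labels, but whether counting used the strand is not given. FPKM values served to show levels, and counts for tests.

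Counts were tested with edgeR 4.0.16 in R 4.3.3 (quasi-likelihood test, TMM normalization, minimum count of 10, all 9 libraries in one fit), with Benjamini-Hochberg adjustment over the 16874 genes tested. The common biological coefficient of variation was 0.256. The thresholds (p under 0.05 before adjustment, log2FC beyond 1 in either direction) are those of the study's results section. Its methods state a lower fold, so a log2FC beyond 0.58 was added as an alternative after seeing the data. SE is the standard error of log2FC. The 10 members and the other lists were chosen with earlier results of these data known. Named genes were the members, genes of each further list past the thresholds (up to 4, otherwise up to 2 abundant ones), Adipoq, Lep, Ucp1, Acta1 and Ckm, and the 8 genes most alike by Pearson's r of log2 CPM. Other genes were named after their values were seen. The test was checked on simulated data.

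Libraries with the same replicate number in OVX and OVX-AS-IV-High had correlated deviations from their group means (0.310, 0.158 and 0.130 for numbers 1, 2 and 3). The values were 0.314, -0.158 and 0.435 for treated rats and Sham, and 0.200, -0.161 and 0.253 for OVX and Sham. The study describes no pairing, and these correlations alone cannot show that animals were paired. The number was therefore used as a block only in an alternative fit. Alternatives were DESeq2 1.42.0, limma 3.58.1 on log2(FPKM + 1) and log2(FPKM + 0.1), a mean FPKM filter of 1, RLE size factors, TMM without muscle and erythroid genes, no filter on low counts, only the groups compared, a replicate block, a muscle covariate, leaving out each library and, chosen after seeing the data, leaving out Sham 1, Sham 2 and OVX-AS-IV-High 1 together. Motifs were searched with Python 3.11.15, and plots drawn with matplotlib 3.10.9.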

Additional observations from a re-analysis of the deposited data

How the results depend on the processing

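Of 600 results (10 members, 3 comparisons and 20 alternatives), 528 kept direction and side of the thresholds, 34 fell back within them, 2 came past them and 36 turned direction. Of the latter, 24 were differences between treated rats and OVX. The number of members past the thresholds in OVX vs. Sham, 3, became 0 with the muscle covariate and 0 to 3 when single libraries were left out, with 1 without Sham 1, 1 without Sham 2 and 0 without OVX 2. In OVX-AS-IV-High vs. Sham it became 0 with the muscle covariate, 1 with limma on log2(FPKM + 1), with or without the mean FPKM filter, 1 on log2(FPKM + 0.1), and 1 to 3 when single libraries were left out. Cidec and Cidea were the members lost most often. In OVX-AS-IV-High vs. OVX it was 0 under all 20 alternatives and with the lower fold threshold, which gave 4 members in each comparison with Sham. Over all genes, limma on log2(FPKM + 1) put 74 genes past the thresholds in OVX vs. Sham against 525 in edgeR, and the test without a low-count filter 791. When treated rats were set against OVX, the numbers were 13 and 274 against 140. In OVX-AS-IV-High vs. Sham, limma put 82 past them against 531. DESeq2 gave 834, 37 and 1009 genes an adjusted p under 0.05 in the 3 comparisons, and edgeR 0. The cause was not tested.

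With the replicate block, 3, 0 and 2 members were past the thresholds in the 3 comparisons. Cidec in OVX-AS-IV-High vs. Sham dropped to a log2FC of 0.95, Cidea in treated rats against OVX went to -0.012, and the other 28 member results kept their call and direction. With the block, 1 member (Fabp4) had an unadjusted p under 0.05 between treated rats and OVX, where 0 had one in the main fit. Without the block, 1 member also had one with the muscle covariate, and 1 when OVX 1 was left out.

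Direction turned as follows. Without the 3 muscle-rich libraries, log2FC was 0.071 for Lipe in OVX vs. Sham, 0.19 for Lipe in OVX-AS-IV-High vs. Sham, and 0.067 for Pparg and 0.086 for Plin4 in OVX-AS-IV-High vs. OVX. Cidea in OVX-AS-IV-High vs. OVX was -0.079 with the muscle covariate, -0.046 with limma on log2(FPKM + 1) under both filters and -0.057 on log2(FPKM + 0.1). Lipe in OVX-AS-IV-High vs. Sham was 0.0053 with only the groups compared. When single libraries were left out, log2FC in OVX vs. Sham ranged from -0.12 to 0.41 for Plin4 and from -0.23 to 0.080 for Lipe. In OVX-AS-IV-High vs. Sham it ranged from -0.15 to 0.29 for Plin4 and from -0.096 to 0.081 for Lipe. In OVX-AS-IV-High vs. OVX it ranged from -0.25 to 0.061 for Pparg, from -0.0079 to 0.072 for Cebpa, from -0.060 to 0.38 for Plin1, from -0.27 to 0.22 for Plin4, from -0.58 to 0.15 for Cidec, from -0.23 to 0.19 for Cidea, from -0.092 to 0.22 for Lipe and from -0.18 to 0.14 for Pnpla2. None of the members in these sentences was past the thresholds in the comparison named.

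With 3 libraries per group, differences near the SE of a gene could not be seen. Muscle RNA differed between libraries and was highest in 2 of 3 Sham libraries, so group and muscle content are partly confounded. Depth was not limiting, since the lowest member count was 128.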

Other observations

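Of 11 adipocyte markers beyond the 10 genes, 7 were past the thresholds upward in OVX-AS-IV-High vs. Sham, against 1.11% of all genes, and 0 downward. The list's median log2FC was 1.11. Besides Adipoq (3.40-fold), Lep (2.89-fold), Thrsp and Pnpla3, these were Retn (4.27-fold), Acvr1c (2.29-fold), a receptor of the activin family, and Sncg (2.14-fold), a synuclein of adipocytes. Retn, which encodes resistin, was at 33.8, 21.4 and 20.6 FPKM in Sham, 57.4, 95.5 and 54.3 in OVX, with 181, 68.3 and 69.4 in treated rats. Its highest library was OVX-AS-IV-High 1, which was among the lowest for 5 of the 10 members. 

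Klf5, a transcription factor of early adipogenesis singled out after its values were seen, had a log2FC of -0.50 (SE 0.169, adjusted p = 0.209 by edgeR) in OVX vs. Sham. Treated rats stood above OVX by 0.47 (SE 0.169, adjusted p = 0.684). The groups did not overlap in either comparison (both use the OVX libraries), and neither difference passed the thresholds.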
